A study of Mus musculus with 703 samples.

Results

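Oxct1, Bdh1 and Acat1 encode the enzymes with which mitochondria burn ketone bodies, and their levels were followed here across RNA-seq libraries of mouse gastrocnemius, a mixed but mostly fast calf muscle. The members were the 3 rows of the count table with these gene symbols, among 19088 genes. Oxct1 led to the choice, because it had the smallest metformin p of all genes. The metformin values of the 3 genes are therefore given as a description, with no test.

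The mice were CC-RIX animals, F1 offspring of pairs of inbred Collaborative Cross lines, and came from 20 such strains. The 8 groups combined sex, diet and treatment. The 236 females and 233 males without drug were split about evenly between a diet of 10% fat with fiber and one of 44% fat with fiber. The 4 treated groups held 57 females and 59 males on 10% fat and 59 females and 59 males on 44% fat, all with metformin in the drinking water at 5 mg/mL. Metformin is a common drug for type 2 diabetes. The diets began at 6 weeks of age and the drug at 7 months. Tissue was taken at 6 or at 12 months, so treated animals belonged to the older cohort, whereas the labels of single libraries give no age. Age and treatment cannot be told apart in this comparison. The treatment notes call the diets chow and a high fat, high sugar diet. The libraries of a group carry separate sample names, but the labels tie none to a named animal, so p-values measure the spread between these libraries. Sequencing identifiers fall into a lower range (400 untreated and 144 treated libraries) and an upper range (69 untreated and 90 treated libraries). The labels do not say what the ranges stand for.

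The libraries held between 27.4 M and 96.1 M estimated counts, with a median of 47.9 M (M for mega). The 5 skeletal muscle markers had median levels from 4710 to 59600 CPM (counts scaled to a common library total), and the 9 slow fibre markers from 21.7 to 726 CPM. The 10 fast fibre markers had medians from 1720 to 59600 CPM. In 15 libraries Xist, the transcript of the inactive X chromosome, did not match the labelled sex. In 4 libraries the profile was closest to another strain, and in a larger set the summed level of 8 liver markers was over 10 times the median. The metformin, diet, sex, strain and range comparisons were fitted with and without each of these sets. In whole muscle, fewer cells of a type and less RNA per cell cannot be told apart.

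As background, ketone bodies are made by the liver from fatty acids during fasting, long exercise or carbohydrate shortage, and are oxidised in heart, brain and muscle. Beta-hydroxybutyrate is first oxidised to acetoacetate by BDH1, beta-hydroxybutyrate dehydrogenase. OXCT1, also called SCOT, then moves coenzyme A from succinyl-CoA onto acetoacetate, the step that commits a tissue to ketone body use and that the liver lacks. ACAT1, the mitochondrial acetoacetyl-CoA thiolase, splits the product into acetyl-CoA for the citric acid cycle, and also serves isoleucine breakdown.

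On GRCm38, Oxct1 (ENSMUSG00000022186) lies on the forward strand at chr15:4026383-4155344, Bdh1 (ENSMUSG00000046598) on the forward strand at chr16:31422280-31458901, and Acat1 (ENSMUSG00000032047) on the reverse strand at chr9:53580522-53610382. RefSeq promoter windows on GRCm38.p6 were at hand for Oxct1, at chr15:4026178-4026477, and for 2 starts of Bdh1, at chr16:31422047-31422346 and chr16:31428503-31428802. Each runs 5′ to 3′ on the forward strand from 250 bases before to 50 bases after the start. They are shown because the genes differed in their response to diet and sex, and capitals mark CG dinucleotides.

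Oxct1: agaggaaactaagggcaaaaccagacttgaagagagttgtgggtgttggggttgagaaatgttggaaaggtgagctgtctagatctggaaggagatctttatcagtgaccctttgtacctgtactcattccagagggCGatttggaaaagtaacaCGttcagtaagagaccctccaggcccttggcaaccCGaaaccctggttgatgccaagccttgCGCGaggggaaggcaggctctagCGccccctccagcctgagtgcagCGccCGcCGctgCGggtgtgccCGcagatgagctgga

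Bdh1, upstream start: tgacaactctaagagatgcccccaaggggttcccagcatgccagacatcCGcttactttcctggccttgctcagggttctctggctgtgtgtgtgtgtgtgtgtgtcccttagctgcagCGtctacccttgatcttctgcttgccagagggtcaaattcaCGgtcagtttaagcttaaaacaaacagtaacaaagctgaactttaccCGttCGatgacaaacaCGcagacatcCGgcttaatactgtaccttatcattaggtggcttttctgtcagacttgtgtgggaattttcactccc

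Bdh1, downstream start: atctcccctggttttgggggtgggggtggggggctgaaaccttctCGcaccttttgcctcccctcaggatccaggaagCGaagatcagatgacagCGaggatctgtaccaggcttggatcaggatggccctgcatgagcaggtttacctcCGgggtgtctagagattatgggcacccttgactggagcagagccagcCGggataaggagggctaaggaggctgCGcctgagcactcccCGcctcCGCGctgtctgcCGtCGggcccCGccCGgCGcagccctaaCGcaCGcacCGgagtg

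The Oxct1 window held 11 CG dinucleotides, the upstream Bdh1 window 7 and the downstream Bdh1 window 17, against a median of 7 over 32851 promoter windows of the same length. The 6 motifs below were searched on both strands. None of AGGTCA (in 16.3% of all windows), TNAAGGTCA (1.28%, and holding AGGTCA within it), CCAAT (37.4%), TATAAA (13.6%) or CACGTG (7.15%) was found in the 3 windows. GGGCGG (35.7%) was found once, in the downstream Bdh1 window. These are matches of letters only.

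Reads of 2 of the genes may be shared with antisense genes. Of the 100-base stretches of the annotated transcripts, 9.82% in Oxct1 also lie in BC037032 and 8.42% in Bdh1 also lie in Gm15743, whereas none of those of Acat1 lie in another gene. Both antisense genes were counted at low level, with median counts of 51 for BC037032 and 13 for Gm15743. The median counts of the members were 11989 for Oxct1, 925 for Bdh1 and 7342 for Acat1, and the lowest count of any library was 207, for Bdh1.

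Per length of exon, Oxct1 was the most abundant of the 3 in untreated muscle, at 70.4 ± 11.3 CPM per kilobase (SD over all untreated libraries). Acat1 followed at 41.2 ± 4.9 CPM per kilobase, and Bdh1 was far lower at 5.45 ± 2.25 CPM per kilobase. All levels below are CPM after TMM scaling, and differences are log2 differences with their standard errors. Unless another test is named, adjusted p-values come from edgeR's quasi-likelihood test with Benjamini-Hochberg adjustment over all genes tested.

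The plot of levels by group shows the spread behind every comparison that follows. Oxct1 had its highest group median, 272 CPM, in untreated females on 10% fat and its lowest, 203 CPM, in treated females on 44% fat. Bdh1 followed sex instead: its 4 female medians lay between 12.7 and 15.7 CPM and its 4 male medians between 21.7 and 25.4 CPM. Acat1 was lowest in treated females on 10% fat, with a median of 137 CPM, and highest in untreated males on 44% fat, with a median of 169 CPM.

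**Figure D1:**
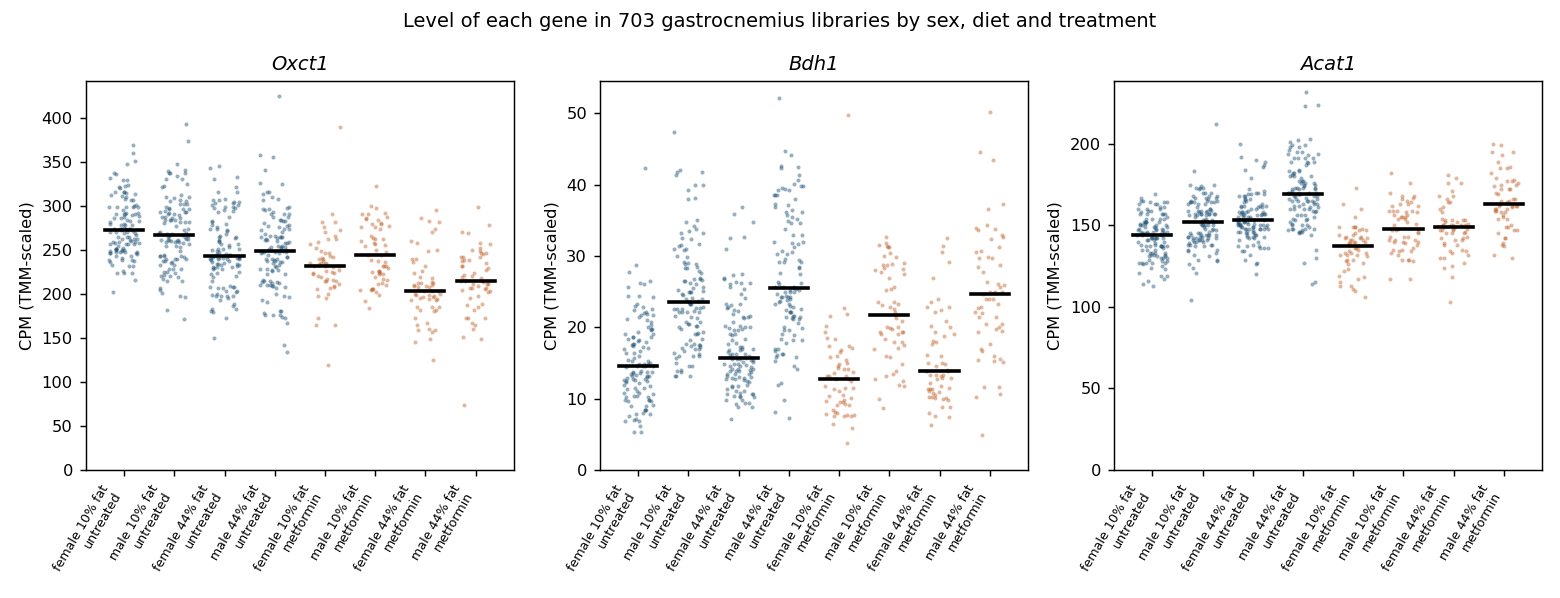
Level in TMM-scaled CPM (y axis, from 0) of Oxct1, Bdh1 and Acat1 in every library of the 8 groups (x axis), untreated in blue and metformin in orange, with a black bar at each group's median. The median of Oxct1 is 272 CPM in untreated females on 10% fat and 203 CPM in treated females on 44% fat, while Bdh1 separates by sex and Acat1 by diet and sex.

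The first question was how the genes stood in metformin-treated muscle. Oxct1 lay between 134 and 424 CPM, with a median of 259 CPM, in the untreated libraries. In the treated libraries it lay between 73.6 and 389 CPM, with a median of 223 CPM. The ranges overlapped almost fully, with 231 treated libraries inside the untreated range. Of all treated libraries, 191 (81.6%) lay below the untreated median. The fitted difference, treated minus untreated, was -0.19 ± 0.017 (log2, SE), or 0.874-fold. Of all genes, 93.3% had a smaller difference in size.

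Bdh1 was also lower in treated muscle, with a range of 5.3 to 52.1 CPM and a median of 20.1 CPM untreated against 3.74 to 50.2 CPM and 17.8 CPM treated. Its difference was -0.18 ± 0.037, or 0.883-fold. Acat1 differed least: it had a median of 153 CPM and a highest value of 232 CPM untreated, and a median of 148 CPM and a highest value of 200 CPM treated, with 233 treated libraries inside the untreated range. Its difference was -0.05 ± 0.011, or 0.964-fold. In both genes 60.3% of treated libraries lay below the untreated median. Over all genes, 19.4% of 17740 were called in this contrast, from which nothing is read for genes chosen by it.

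Ranked by the p of this contrast, Oxct1 was the first gene, Acat1 number 347 and Bdh1 number 394. The -log10 of the unadjusted p was 26.81 for Oxct1. Just behind it were Cr2, a complement receptor of B cells, with 25.76 and a difference of -2.63 ± 0.24, and Gm5091 with 25.33 and a difference of 0.40 ± 0.036.

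The metformin difference was also split by strain, in the same libraries that led to the choice of Oxct1. The split is therefore a description and no independent support. In a linear fit of log2 CPM within each strain, with sex, diet and range held, the difference was negative in 19 of 20 strains and ran from -0.45 to 0.03, with a median of -0.20. The exception was (CC024/GeniUncJ x CC002/UncJ)F1, at 0.03 ± 0.062. Acat1 was lower in 18 of 20 strains and Bdh1 in 15 of 20, where the values spread from -0.91 to 0.21. The lowest treated library, at 73.6 CPM of Oxct1, came from a male of (CC051/TauUncJ x CC019/TauUncJ)F1 on 44% fat and also held a low 4.95 CPM of Bdh1 but 139 CPM of Acat1.

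Whether the treatment difference depended on diet, sex or strain is another contrast, and was tested. Oxct1 differed by -0.18 ± 0.022 on 10% fat and -0.21 ± 0.027 on 44% fat, in linear fits of log2 CPM, and the interaction was not called (-0.05 ± 0.032, adjusted p = 0.69, against 0.0902% of genes called). In females it differed by -0.24 ± 0.022 and in males by -0.16 ± 0.024. The interaction with sex was 0.08 ± 0.032 and was not called either (adjusted p = 0.15, against 3.12% of genes). Neither interaction was called for Bdh1 or Acat1, with adjusted p from 0.47 to 0.97.

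The treatment difference depended on strain in 2 of the 3 genes. The interaction of metformin and strain was called for Oxct1 (F = 2.41, adjusted p = 0.011) and Bdh1 (F = 2.41, adjusted p = 0.011) and not for Acat1 (F = 1.89, adjusted p = 0.082), against 11.6% of all genes. With limma voom the call of Bdh1 was lost (adjusted p = 0.072). At one end, Oxct1 in (CC043/GeniUncJ x CC011/UncJ)F1 had a mean of 275 ± 32.4 CPM (SD, n = 24) untreated and 204 ± 46 CPM (n = 12) treated. At the other, (CC024/GeniUncJ x CC002/UncJ)F1 had 258 ± 37.1 CPM (n = 24) untreated and 266 ± 48.1 CPM (n = 12) treated. Bdh1 was lowest relative to untreated animals in (CC042/GeniUncJ x CC060/UncJ)F1, with a fitted difference of -0.91 ± 0.11 with range held. The treated libraries of this strain all lay in the upper range. Untreated Bdh1 of this strain was 34.1 ± 8.98 CPM (n = 10) in that range and 25.5 ± 7.94 CPM (n = 12) in the lower one. Without range held the difference was -0.63 ± 0.12.

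The second question was the effect of the diet, which the choice of genes did not use. Oxct1 fell on 44% fat while Bdh1 and Acat1 rose. In untreated animals Oxct1 ran from 171 to 393 CPM, median 269 CPM, on 10% fat and from 134 to 424 CPM, median 245 CPM, on 44% fat (n = 235). The ranges overlapped and 70.6% of the high-fat libraries lay below the low-fat median. Oxct1 fell by 0.13 ± 0.017 on the log2 scale (8.76% lower level, F = 59, adjusted p = 1.1e-11), in 20 of 20 strains.

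Acat1 rose by 0.14 ± 0.0115 (adjusted p = 7.8e-26), also in 20 of 20 strains. It averaged 147 ± 14.6 CPM (SD), at most 212 CPM, on 10% fat and 162 ± 19 CPM, at most 232 CPM, on 44% fat. Of the high-fat libraries 17% lay below the low-fat median. Bdh1 rose by 0.15 ± 0.038 (adjusted p = 0.00074), in 15 of 20 strains, from a median of 19.1 CPM (5.3 to 47.4 CPM) to 21.3 CPM (7.07 to 52.1 CPM). All 3 members were thus called, against 20.3% of 16384 genes, in 2 directions.

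The same pattern was found in the treated libraries, which the fit above did not hold. There Oxct1 fell by 0.18 ± 0.026 (adjusted p = 1.9e-08, 18 of 20 strains), Acat1 rose by 0.13 ± 0.016 (adjusted p = 4.5e-12, 19 of 20 strains) and Bdh1 rose by 0.19 ± 0.060 (adjusted p = 0.02, 13 of 20 strains), against 12.1% of genes called. The treated means of Oxct1 were 239 ± 35.5 CPM on 10% fat and 211 ± 37.1 CPM on 44% fat. No interaction of diet with sex (adjusted p from 0.28 to 0.96, against 0.568% of genes) or with strain (0.21 to 0.97, against 4.13%) was called for the 3 genes.

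In untreated animals other mitochondrial genes rose with diet, while Oxct1 fell. Of 6 mitochondrial reference genes 5 rose there and none fell. In treated animals 1 of the 6 rose, none fell and 5 were not called, against 12.1% of all genes called. The summed level of the 6 genes in untreated animals ran from 2950 to 4850 CPM on 10% fat and from 2880 to 5630 CPM on 44% fat. With their mean level as a covariate, a fit added after the data were seen, Oxct1 fell by 0.18 ± 0.0151 (adjusted p = 3.7e-27), Acat1 rose by 0.09 ± 0.0079 (adjusted p = 1e-23) and Bdh1 was no longer called (0.08 ± 0.0363, adjusted p = 0.066). Of 9 slow fibre markers 4 rose on 44% fat, against 20.3% of all genes called, with summed levels of 630 to 4020 CPM and 544 to 4610 CPM. With them as a covariate all 3 calls stood. Of 7 adipocyte markers 5 rose and 2 fell, with summed levels of 74.8 to 917 CPM and 73 to 1200 CPM. With those as a covariate all 3 calls stood too. In treated animals 3 of 9 slow fibre markers rose, while 1 of 7 adipocyte markers rose and 2 fell. In the 69 untreated libraries of the upper range alone the differences kept their directions but missed the threshold (Oxct1 -0.17, Bdh1 0.30, Acat1 0.12, adjusted p from 0.092 to 0.098).

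**Figure D2:**
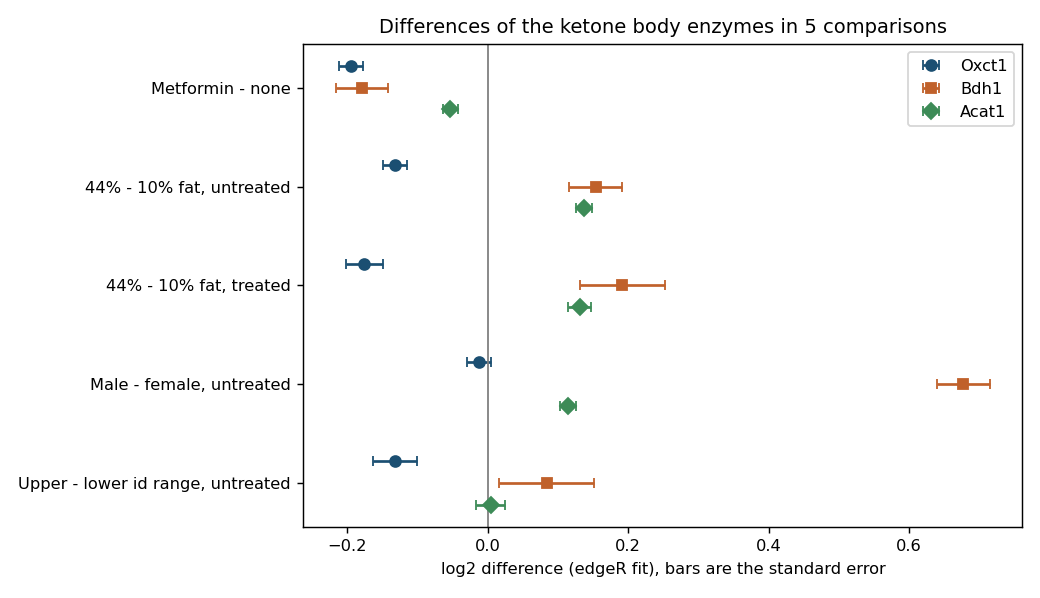
Log2 difference from the edgeR fits (x axis) with its standard error as a bar, for Oxct1, Bdh1 and Acat1 in 5 comparisons (y axis). Oxct1 lies on the other side of 0 from Bdh1 and Acat1 in both diet comparisons, all 3 lie below 0 for metformin, and the sex difference of Bdh1 is 0.68.

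The third comparison was between the sexes. Bdh1 was 1.6-fold higher in untreated males than in females (0.68 ± 0.038, adjusted p = 3.5e-53) and higher in males in 20 of 20 strains. It ran from 5.3 to 42.3 CPM, median 15.2 CPM, in 236 females and from 7.27 to 52.1 CPM, median 24.6 CPM, in 233 males. The ranges overlapped, but only 16 males (6.87%) lay below the female median. Acat1 was modestly higher in males (0.11 ± 0.012, adjusted p = 3.4e-20, 20 of 20 strains), with medians of 149 CPM in females and 160 CPM in males. For Oxct1 the sexes were not called apart, with medians of 259 and 260 CPM (-0.01 ± 0.017, adjusted p = 0.52). Sex was called in 67.1% of all genes, so a call by itself is near the background, whereas the size of the Bdh1 difference exceeded that of 96.8% of genes.

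Fibre markers and mitochondrial genes also differed by sex. All 9 slow fibre markers were lower in males, with a summed level of 1300 to 4610 CPM in females and 544 to 2790 CPM in males, and 6 of 7 adipocyte markers were lower, at 73 to 1050 CPM and 74.8 to 1200 CPM. In contrast 5 of 6 mitochondrial reference genes were higher in males, with summed levels of 2880 to 4260 CPM in females and 2880 to 5630 CPM in males. Of 10 fast fibre markers 7 were higher and 3 lower in males, and 1 adipocyte marker was higher. These counts stand against 67.1% of all genes called for sex. The part of these in the sex differences was not tested beyond the covariate fits given next. With the slow fibre markers as a covariate the male excess of Bdh1 was 0.98 ± 0.0548, that of Acat1 0.19 ± 0.0169 and that of Oxct1 0.10 ± 0.0253 (adjusted p = 0.00025). With the mitochondrial genes as a covariate Bdh1 stayed higher in males (0.48 ± 0.0429), Acat1 was not called (-0.01 ± 0.0093, adjusted p = 0.31) and Oxct1 was lower in males (-0.15 ± 0.0177, adjusted p = 8.6e-15).

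For Oxct1 the sign of the sex difference varied among strains. Within strains the difference, male minus female, ran from -0.30 to 0.42 and was positive in 10 and negative in 10. In a test added after these values were seen, the interaction of sex and strain was called for Oxct1 (F = 3.66, adjusted p = 7.2e-06), against 34.1% of genes. In (CC030/GeniUncJ x CC002/UncJ)F1 females had 250 ± 30.4 CPM and males 199 ± 27.2 CPM (SD, n = 12 each). In (CC043/GeniUncJ x CC011/UncJ)F1 the order was turned, with 257 ± 26.4 CPM in females and 293 ± 28 CPM in males (n = 12 each). In (CC009/UncJ x CC013/GeniUncJ)F1 the 5 untreated females had 224, 231, 150, 172 and 183 CPM, the last 3 on 44% fat. The 5 males of that strain had 236 and 215 CPM on 10% fat and 290, 283 and 254 CPM on 44% fat, so the sexes did not overlap on the high-fat diet.

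The same interaction was called for Bdh1 (F = 1.95, adjusted p = 0.033) and Acat1 (F = 2.03, adjusted p = 0.024), where all strains had the same sign. Both calls were lost without the 15 libraries whose Xist lay on the other side (adjusted p = 0.097 and 0.11). They were also lost without the libraries with high liver markers (0.2 and 0.055), whereas the call of Oxct1 stood in both cases (1e-06 and 6.2e-05). Leaving out the liver set removed many more libraries than leaving out the Xist set. The part of the smaller sample in the lost calls was not tested.

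**Figure D3:**
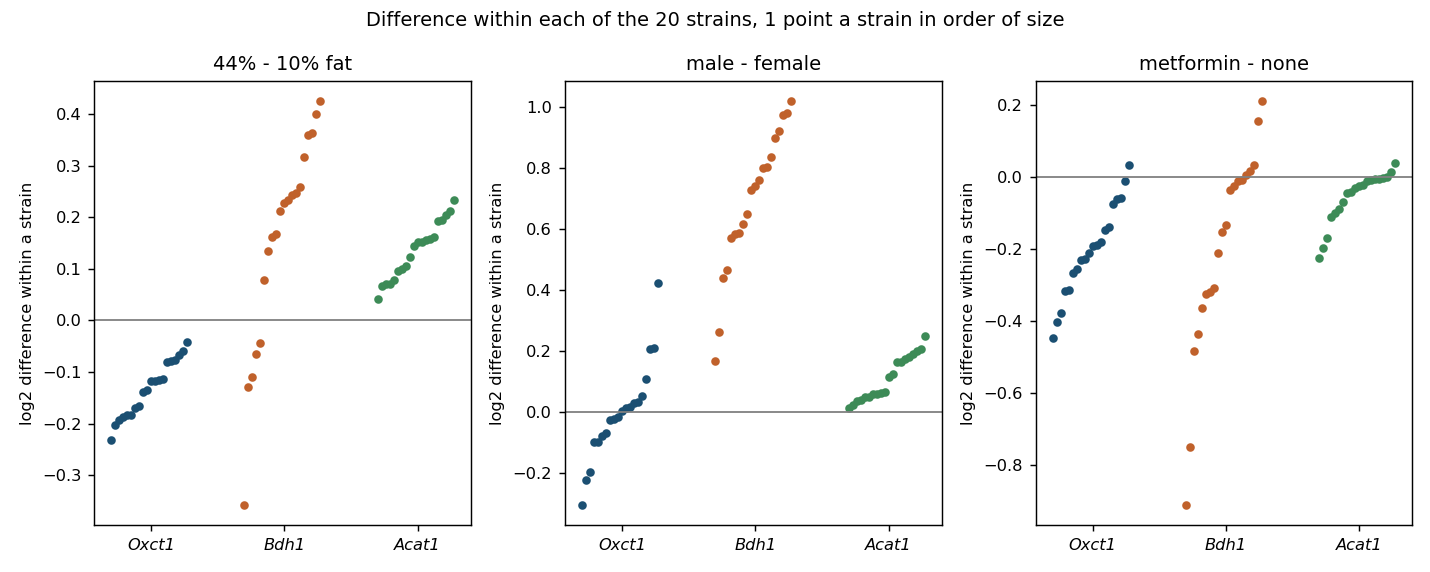
Log2 difference within each of the 20 strains (y axis, 1 point a strain in order of size) for diet and sex in untreated animals and for metformin, from linear fits of log2 CPM. All 20 points of Oxct1 lie below 0 and all 20 of Acat1 above 0 for diet, while the points of Oxct1 for sex lie 10 above and 10 below 0.

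The fourth comparison was among the 20 strains, in untreated animals. All 3 genes were called for strain, with F = 10.4 for Oxct1 (adjusted p = 3.4e-25), 12.3 for Bdh1 (5.6e-30) and 9.15 for Acat1 (6.6e-22), as were 95.4% of genes. The strain means of Oxct1 spanned 1.49-fold, those of Bdh1 2.05-fold and those of Acat1 1.22-fold. Strain accounted for 23.5% of the variance of log2 CPM for Oxct1, 21.1% for Bdh1 and 18.4% for Acat1 (omega squared). Diet accounted for 8.45%, 1.39% and 15.6%, and sex for 0%, 31% and 10.7% in the same order.

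Oxct1 was highest in (CC042/GeniUncJ x CC040/TauUncJ)F1, at 329 ± 35.1 CPM (SD, n = 24). The next was (CC012/GeniUncJ x CC002/UncJ)F1 at 295 ± 32.2 CPM (n = 24). This was the only pair of neighbours in the order that differed beyond their spread, by 0.16 on the log2 scale (two-sided permutation test of 100000 resamples, adjusted p = 0.044 over 57 pairs). From the third to the 18th place, with no neighbours separated, the means ran from 276 ± 29.4 CPM in (CC042/GeniUncJ x CC060/UncJ)F1 (n = 22) to 237 ± 39.7 CPM in (CC001/UncJ x CC042/GeniUncJ)F1 (n = 24). At the foot were (CC030/GeniUncJ x CC002/UncJ)F1 at 224 ± 38.1 CPM (n = 24) and (CC009/UncJ x CC013/GeniUncJ)F1 at 224 ± 45.9 CPM (n = 10). The last strain was sequenced in the upper identifier range only.

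Over all untreated libraries, offspring of some parental lines were spread over the order and those of others lay closer together. The 6 strains with a CC042/GeniUncJ parent held ranks from 1 to 18 for Oxct1, and the 5 with a CC002/UncJ parent ranks from 2 to 19. The 3 with a CC011/UncJ parent held ranks 4 to 7 and the 4 with a CC019/TauUncJ parent ranks 12 to 16. The 3 strains with a CC051/TauUncJ parent stood low for Oxct1, at ranks 14 to 17, but held ranks 2 to 4 for Bdh1 and ranks 15 to 20 for Acat1. These ranks are a description and mix the identifier ranges. In the lower range alone the CC019/TauUncJ offspring were less close, at ranks 7, 14, 15 and 17 for Oxct1. The CC051/TauUncJ offspring held ranks 11, 15 and 16 there, and the CC011/UncJ offspring ranks 4, 5 and 8.

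Bdh1 was highest in (CC042/GeniUncJ x CC060/UncJ)F1 at 29.4 ± 9.33 CPM (n = 22) and lowest in (CC011/UncJ x CC027/GeniUncJ)F1 at 14.6 ± 5.53 CPM (n = 24). Acat1 was highest in (CC002/UncJ x CC075/UncJ)F1 at 169 ± 20.1 CPM (n = 24) and lowest in (CC051/TauUncJ x CC019/TauUncJ)F1 at 139 ± 14.9 CPM (n = 24). None of the 19 pairs of neighbours of either gene differed beyond their spread (smallest adjusted p = 0.98). For all 3 genes, neighbours in an order of their own means lie close by construction, and this permutation test did not hold sex or diet. It therefore does not say whether strains further apart in the order differ. The orders differed between the 3 genes. Over the 20 strain means r was -0.22 for Oxct1 and Bdh1, 0.22 for Oxct1 and Acat1, and -0.02 for Bdh1 and Acat1.

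**Figure D4:**
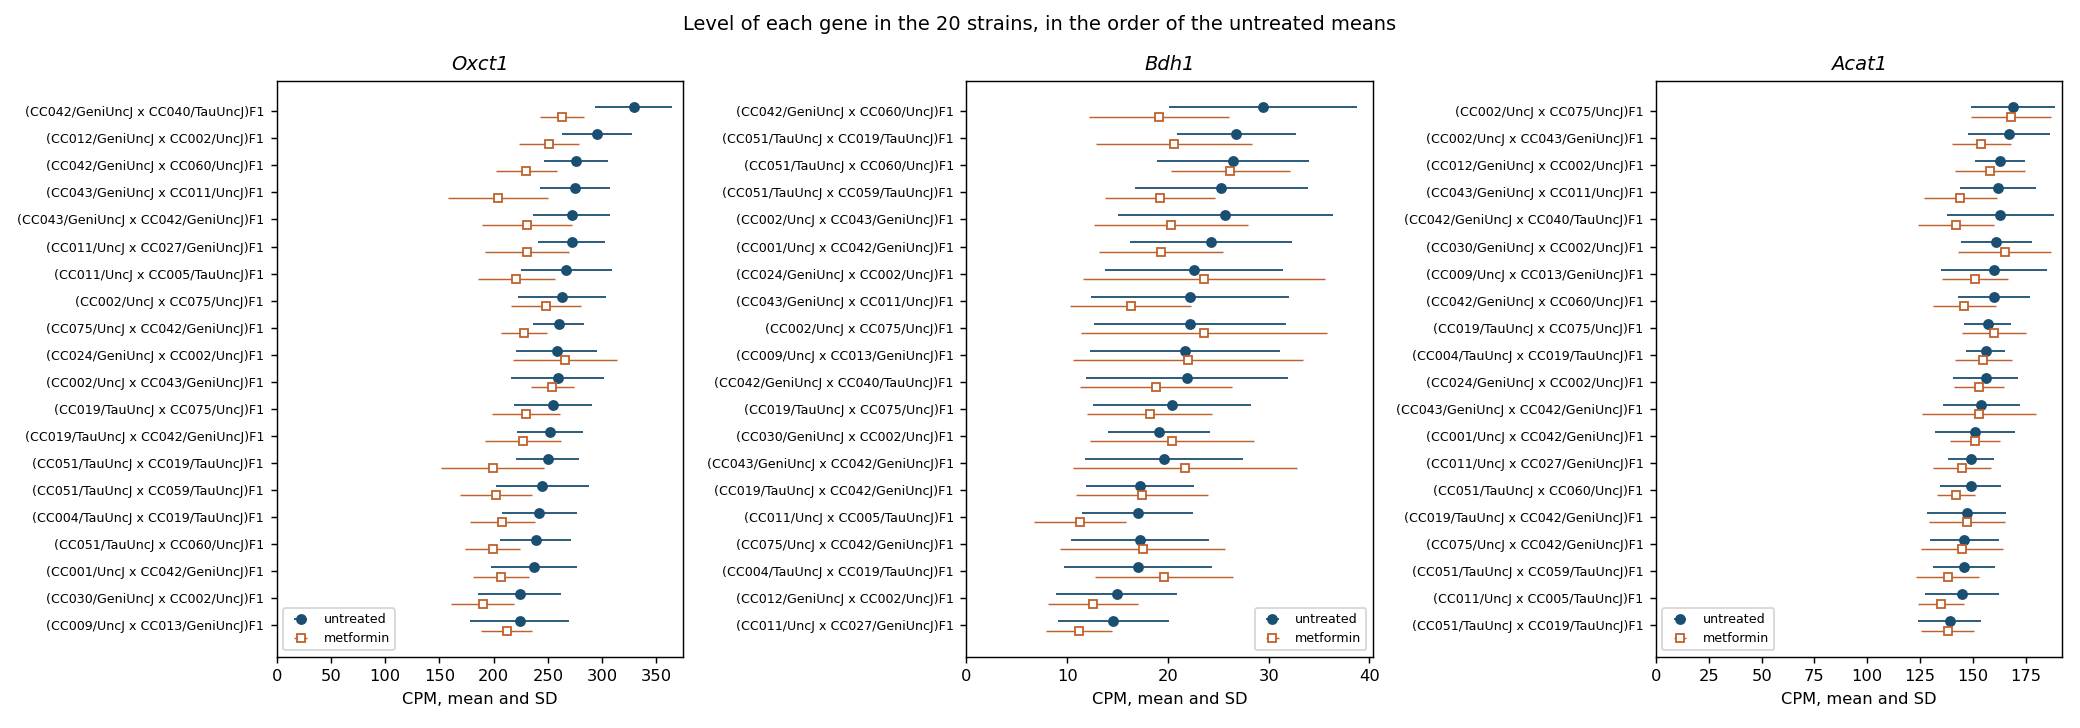
Mean level in CPM (x axis, from 0) with its SD for each of the 20 strains (y axis, in the order of the untreated means), untreated in filled blue circles and metformin in open orange squares. Oxct1 spans 1.49-fold among untreated strains with (CC042/GeniUncJ x CC040/TauUncJ)F1 at the top, and its treated mean is lower than the untreated one in 19 of 20 strains.

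The identifier range was the last comparison. In untreated animals Oxct1 was lower in the upper range (-0.13 ± 0.031, adjusted p = 0.00047, with strain, sex and diet held), while Bdh1 (0.08 ± 0.068, adjusted p = 0.4) and Acat1 (0.00 ± 0.021, adjusted p = 0.92) were not called, against 22.4% of genes. Oxct1 ran from 134 to 424 CPM, median 261 CPM, in the 400 lower-range libraries and from 142 to 331 CPM, median 242 CPM, in the 69 upper-range ones. All upper-range values lay inside the lower range of values. Of 5 blood markers 5, and of 8 liver markers 4, were higher in the upper range, against 22.4% of all genes called. Summed levels in the lower and upper range had medians of 255 CPM and 308 CPM for blood. For liver they ran from 0.0611 to 7180 CPM and from 0.575 to 4520 CPM. Also higher were 3 of 6 macrophage, 1 of 7 adipocyte and 1 of 5 Schwann cell markers. Lower were 3 of 5 skeletal muscle, 2 of 9 slow fibre, 2 of 10 fast fibre and 2 of 5 endothelial markers. So were 2 of 6 mitochondrial reference genes and 3 of 5 regulators of oxidative genes. Without the libraries with high liver markers the difference of Oxct1 was -0.11 ± 0.0377 (adjusted p = 0.033).

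Since 90 of the 159 upper-range libraries were treated, the metformin difference was also fitted within each range alone, as values with no test. Oxct1 differed by -0.22 ± 0.0205 in the lower range and by -0.11 ± 0.030 in the upper one, Bdh1 by -0.16 and -0.20, and Acat1 by -0.05 and -0.04. The interaction of treatment and range was 0.11 ± 0.038 for Oxct1 and was not called (adjusted p = 0.095, against 1.71% of genes), nor was it for Bdh1 (adjusted p = 0.81) or Acat1 (0.96). In linear fits within strains, with sex and diet held, Oxct1 was lower with metformin in 14 of 15 strains of the lower range. In the upper range these fits covered 7 strains, and it was lower in all 7. By plain means of log2 CPM it was lower in 6 of 8 upper-range strains. In (CC051/TauUncJ x CC059/TauUncJ)F1, which the upper-range fits did not cover, the means were 179 CPM untreated (n = 2) and 225 CPM treated (n = 3). In (CC030/GeniUncJ x CC002/UncJ)F1 they were 186 and 198 CPM (n = 3 each). All these values are parts of the contrast that led to the choice of Oxct1.

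In 4 strains untreated libraries were split between the ranges and the treated ones lay in the upper range. In (CC051/TauUncJ x CC060/UncJ)F1 Oxct1 was at 258 ± 22.4 CPM untreated in the lower range, 221 ± 31.5 CPM untreated in the upper range and 199 ± 25.2 CPM treated (n = 12 each). In (CC042/GeniUncJ x CC060/UncJ)F1 the values were 290 ± 21 CPM (n = 12), 259 ± 30.4 CPM (n = 10) and 230 ± 28 CPM (n = 11). The same order held in (CC019/TauUncJ x CC075/UncJ)F1, at 269, 241 and 230 CPM, and in (CC019/TauUncJ x CC042/GeniUncJ)F1, at 255, 248 and 227 CPM. In linear fits of log2 CPM within these 4 strains, the difference between the untreated ranges lay between -0.23 and -0.03, and that between treated and untreated libraries of the upper range between -0.18 and -0.06.

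**Figure D5:**
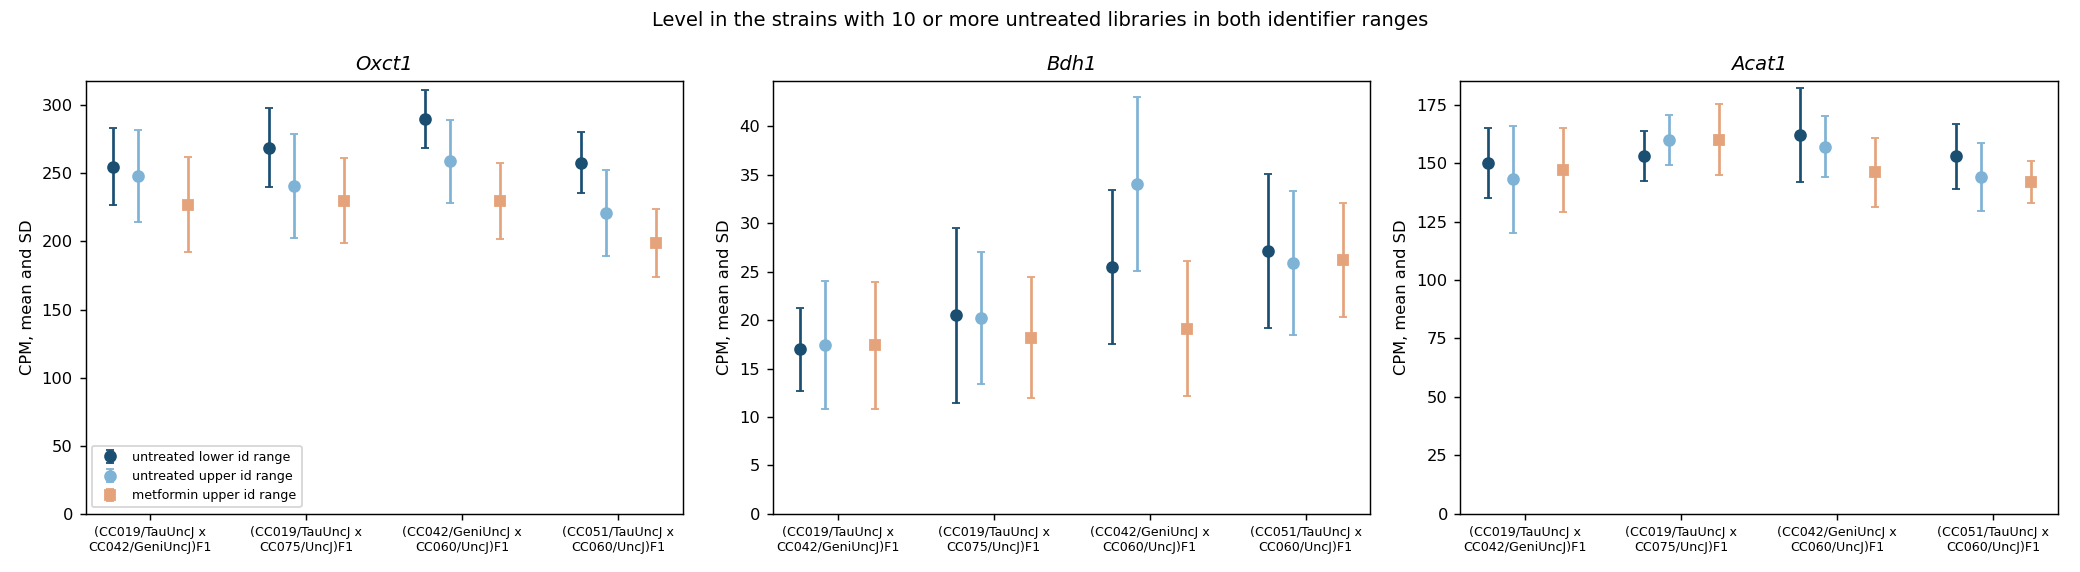
Mean level in CPM (y axis, from 0) with its SD in the 4 strains (x axis) with 10 or more untreated libraries in both identifier ranges, split by range and treatment. For Oxct1 the order untreated lower range, untreated upper range, metformin upper range holds in all 4 strains, as in (CC051/TauUncJ x CC060/UncJ)F1 with 258, 221 and 199 CPM.

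Other genes of ketone body metabolism gave a mixed picture. Of 9 further enzymes 7 were tested. With diet in untreated animals 2 of the 7 fell and none rose, a share near the 20.3% of all genes called. They were Aacs, the cytosolic enzyme that sends acetoacetate to lipid synthesis (-0.57 ± 0.063, adjusted p = 8.4e-16), and Acat2, the cytosolic thiolase (-0.27 ± 0.047, adjusted p = 4.1e-07). The list's median was -0.08, against -0.003 over all genes. Both fell in treated animals as well, by 0.73 ± 0.082 and 0.41 ± 0.063 on the log2 scale. With metformin 1 of the 7 rose, 1 fell and 5 were not called, against 19.4% of all genes called. The gene that rose was Hmgcll1 (0.16 ± 0.058, adjusted p = 0.032), at a low level of 0.42 ± 0.23 CPM in untreated muscle.

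Most transport genes were not called. Of 6 tested genes of monocarboxylate transport 1 rose with diet, 1 fell and 4 were not called, against 20.3% of all genes called. With metformin 2 fell and 4 were not called, against 19.4% of all genes called. Slc16a1, which encodes the ketone body and lactate carrier MCT1, rose with diet (0.08 ± 0.018, adjusted p = 0.00022) and fell with metformin by 0.06 ± 0.017 (adjusted p = 0.0074). Slc16a3, the lactate carrier of fast fibres, fell with metformin by 0.09 ± 0.022 (adjusted p = 0.0011), and Emb, a chaperone of such carriers, fell with diet by 0.26 ± 0.064 (adjusted p = 0.00076). The receptors Hcar2 and Ffar2 were near the detection limit, at 0.21 ± 0.22 and 0.33 ± 0.30 CPM. Of these Ffar2 rose with diet by 0.52 ± 0.090 (adjusted p = 4.9e-07). Neither receptor was called with diet in treated animals, and none of the 6 transport genes was called lower there.

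Genes that make or use succinyl-CoA, the partner of acetoacetate in the OXCT1 reaction, were counted in the same way. Of 5 genes 4 rose with diet, namely Suclg1, Sucla2, Ogdh and Dlst, by 0.06 to 0.07, and none fell, against 20.3% of all genes called. With metformin 4 of 5 fell and none rose, against 19.4% of all genes called, the largest change being that of Dlst (-0.05 ± 0.010, adjusted p = 7.9e-05). The list's medians were 0.07 and -0.03. Among 5 regulators of oxidative genes, Ppara fell with metformin by 0.23 ± 0.037 (adjusted p = 8.8e-08), Ppargc1a by 0.14 ± 0.043 (adjusted p = 0.011) and Esrra by 0.07 ± 0.019 (adjusted p = 0.0018), whereas Esrra (0.08 ± 0.021) and Ppargc1b (0.12 ± 0.034) rose with diet.

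Of the 6 mitochondrial reference genes 4 fell with metformin and none rose, against 19.4% of all genes called, with a median of -0.04. Their summed level ran from 2880 to 5630 CPM in untreated and from 2510 to 5150 CPM in treated libraries. With their mean as a covariate the metformin difference of Oxct1 was -0.15 ± 0.0144, that of Bdh1 -0.12 ± 0.0351 and that of Acat1 -0.02 ± 0.0072. None of the 9 slow fibre, 6 macrophage, 8 liver or 5 blood markers was called with metformin. Of 5 skeletal muscle markers 2 rose, and of 10 fast fibre markers 2 rose and 1 fell. Of 7 adipocyte markers 3 fell, with a median difference of -0.15 over the list. Their summed level had a median of 199 CPM (73 to 1200 CPM) untreated and 180 CPM (89.9 to 1700 CPM) treated. Of 5 Schwann cell markers 2 fell, and of 5 endothelial markers 3 fell and 1 rose. With the adipocyte markers as a covariate Oxct1 differed by -0.20.

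Finally, each gene was set beside the 10133 other named genes of sufficient level by the correlation of residuals over all libraries, after strain, sex, diet, treatment and range were removed. Libraries share depth and RNA quality, so r is a description. By Pearson's r, Oxct1 was most like Ndufs1 (r = 0.645), Ivd (0.642), Ckmt2 (0.631), Aldh4a1 (0.626) and Sdhb (0.624). By Spearman's rho Sdhb came first (0.632) and Ndufs1 was number 7 (0.57). Ndufs1 and Sdhb encode subunits of the respiratory chain, Ivd an enzyme of leucine breakdown and Ckmt2 the mitochondrial creatine kinase of muscle. Acat1 was most like Etfa (0.802), Acadm (0.774), Idh3b (0.754), Atp5a1 (0.739) and Ndufv1 (0.738), genes of fatty acid oxidation, the citric acid cycle and the respiratory chain.

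Bdh1 was most like Atp1b1 (0.718), Actn2 (0.685), Wfs1 (0.678), Myoz2 (0.675) and Mdh1 (0.657). Of these, Actn2 and Myoz2 encode proteins of the Z-disc and Atp1b1 a subunit of the sodium pump. Among themselves the members had r of 0.322 for Oxct1 and Bdh1, 0.374 for Oxct1 and Acat1 and 0.379 for Bdh1 and Acat1. The r of Oxct1 with Bdh1 and with Acat1 exceeded its r with 95.6% and 97.4% of genes. The r of Bdh1 with Acat1 exceeded its r with 98.7% of genes. The residual r with the mean of the slow fibre markers was 0.232 for Oxct1, 0.363 for Bdh1 and 0.309 for Acat1, and with the mitochondrial reference genes it was 0.559, 0.355 and 0.758, the last list holding Atp5a1.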

How the data were processed

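RNA of gastrocnemius muscle was sequenced after poly(A) selection (KAPA mRNA HyperPrep). The authors aligned reads as single ends to an 8-way founder transcriptome and quantified genes with EMASE in GBRS. The deposited table holds estimated counts as whole numbers, for genes of GRCm38 per the labels. The strand setting was not given in the sources used here. A second deposited table holds scores from a variance-stabilising transform by DESeq2, used here only as an alternative. Positions in the deposited annotation were read in Mb and matched to GENCODE M21.

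The estimated counts were fitted with edgeR 4.0.16 (R 4.3.3; TMM scaling, filterByExpr over the 8 groups, glmQLFit and glmQLFTest) with strain, sex, diet, identifier range and, over all libraries, treatment. Diet, sex, strain and range were tested in the untreated libraries. Genes were called at an adjusted p under 0.05. CPM for display used a prior count of 2 on the log2 scale, and exon length was the union of annotated exons. The fits were tested on simulated data. Alternatives used limma 3.58.1, DESeq2 1.42.0, other scaling and filters, covariates and subsets of libraries. The members and lists were chosen with earlier results of these data known. The genes named besides the members were the tested genes of the lists, the genes just behind Oxct1 by metformin p, and the 5 most alike by residual r for each member, leaving out clone and predicted-gene names and genes with a mean level under 1 on the log2 CPM scale. The mitochondrial covariate, the test of sex by strain and the subsets for both tests by strain were added after the data were seen. 1 gene of these lists is not reported here.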

Additional observations from a re-analysis of the deposited data

Results flagged for a closer look

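The treatment difference depended on strain for Oxct1 (F = 2.41, adjusted p = 0.011) and for Bdh1 (F = 2.41, adjusted p = 0.011), as tested by an interaction term in the edgeR fit. Both stand here because effects under the same contrast differed between strains. Without the 15 libraries with a mismatched Xist level the adjusted p-values were 0.014 and 0.0081, and without those with high liver markers they were 0.015 and 0.018. With limma voom the call of Bdh1 was lost (F = 2.15, adjusted p = 0.072).

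The sex difference depended on strain for Oxct1 (F = 3.66, adjusted p = 7.2e-06), Bdh1 (F = 1.95, adjusted p = 0.033) and Acat1 (F = 2.03, adjusted p = 0.024). The calls of Bdh1 and Acat1 were lost without the Xist-mismatched libraries (adjusted p = 0.097 and 0.11) and without the libraries with high liver markers (0.2 and 0.055). The liver set was much the larger of these sets, and the part of the smaller sample in the lost calls was not tested. For Oxct1 the sign itself changed, with 10 strains higher and 10 lower in males. This test was chosen after the values within strains had been seen.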

How the results depend on the processing

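Under the alternatives 335 values stayed as reported, 16 moved, 10 lost a call, 2 gained one and 5 reversed. Tested differences were judged by direction and threshold, the untested metformin differences by direction and by 1 SD between libraries, and percents of genes called by a factor of 1.5. That SD is wide beside the metformin differences of -0.19 for Oxct1, -0.18 for Bdh1 and -0.05 for Acat1. The median SD within untreated strains was 0.20, 0.56 and 0.16 in the same order. A metformin value could thus move most of the way to 0 and still count as stayed. All 42 did count so, among them -0.1147 for Oxct1 in the upper range and -0.0175 for Acat1 with the mitochondrial covariate. The upper identifier range alone, with fewer libraries, called 0.00566% of genes for metformin (1 gene, Asb2, named after its value was seen), 2.2% for diet, 26.1% for sex and 55.1% for strain. It gave diet differences of -0.1685 for Oxct1, 0.2959 for Bdh1 and 0.1199 for Acat1, past no threshold, a sex difference of 0.009 for Oxct1 and a strain F of 2.09 for Acat1 (adjusted p = 0.055). The mitochondrial covariate, added after the data were seen, called 32.8% of genes for diet and gave a diet difference of 0.0825 for Bdh1, sex differences of -0.1477 for Oxct1 and -0.0111 for Acat1 and a range difference of 0.0439 for Acat1 (adjusted p = 0.01). The slow fibre covariate gave a sex difference of 0.1009 for Oxct1. Without libraries of high liver markers the range called 14.2% of genes and gave -0.0066 for Acat1, and without those with a mismatched Xist level it gave -0.0085 for Acat1. Limma voom called 0 genes for metformin by diet (1444 at an unadjusted p under 0.05, against 16 calls by edgeR), 1.59% by sex, 2.85% by strain (F = 2.15 for Bdh1) and 1.12% by range, 0.317% for diet by sex and 0.641% for diet by strain. The sex by strain F of Bdh1 was 1.66 and 1.44, and that of Acat1 1.61 and 1.84, without the Xist-mismatched and the high-liver libraries. By Spearman's rho the likeness of Oxct1 and Ndufs1 was 0.57 and that of Acat1 and Etfa 0.767. The cause of these shifts was not tested. No paired analysis was possible because all labels carry the same replicate number.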
